A study of Rattus norvegicus with 12 samples.

Results

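The genes described here are 21 of 15920 genes measured by RNA-seq in neonatal rat ventricular myocytes (NRVM), primary heart muscle cells taken from Sprague Dawley pups at day 2 to 3. They were chosen from measured values by 3 ratios of group means: at least 2-fold higher with phenylephrine (PE) than at baseline, at most 0.5 of the PE level with PE + THZ1, and above 0.75 of baseline with THZ1 alone. A mean of at least 50 normalized counts over the 12 libraries was also required. All 4 groups entered the choice, so the levels below describe the genes and are no independent evidence of the pattern, and the tests across all genes are given as counts only.

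There were 4 groups of 3 libraries. Baseline cells received vehicle, PE cells received 100 µM PE, PE + THZ1 cells received 100 µM PE and 10 nM THZ1, and THZ1 cells received 10 nM THZ1, with treatment given as 48 h in the labels and 24 h in the names of the 6 PE and PE + THZ1 columns. THZ1 was added 3 h before PE. The libraries held 30458862 to 45885754 reads counted in genes, and the methods say only in general that distinct samples were measured. Whether the 3 libraries of a group came from separate cultures is not given in the sources used here, so part of their spread may be technical. The files do not pair the rat identifiers with gene names, and the gene table used here matched 0 of them. The genes are therefore called by their number, from 1 for the largest PE/baseline ratio to 21 for the smallest, with the identifier for 4 of them, and the cells could not be checked against cardiomyocyte markers.

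PE is an agonist of the α1-adrenergic receptor, which in cultured cardiomyocytes acts through Gq signaling and drives hypertrophic growth, with more protein synthesis, sarcomere assembly and a return of genes of the fetal heart. THZ1 binds CDK7 covalently and also inhibits CDK12 and CDK13. CDK7 is a kinase of the general transcription factor TFIIH and phosphorylates the C-terminal domain of RNA polymerase II at the start of transcription, whereas CDK12 and CDK13 act on it during elongation. Whether a stress-induced gene loses its induction with such an inhibitor while its resting level is kept is the question the selection addresses. In bulk libraries fewer cells of a type and less RNA per cell cannot be told apart, and a normalized count is relative to the size factor of its library and is not an amount per cell.

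Of the 12148 genes with a mean of at least 50, 233 were at least 2-fold higher with PE than at baseline. In 160 of these (68.7%) the level with PE + THZ1 was at most 0.5 of that with PE. The 21 genes are 13.1% of those 160. The ratio THZ1/baseline was above 0.75 in 86.3% of all 12148 genes and in 63 of the 73 PE-raised genes (86.3%) that stayed above 0.5 of the PE level. In 137 of the 160 genes the ratio was 0.75 or less, and these 137 serve as the comparison. The other 2 were left out of the selection beforehand and did not meet the condition on THZ1 alone either.

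**Figure D1:**
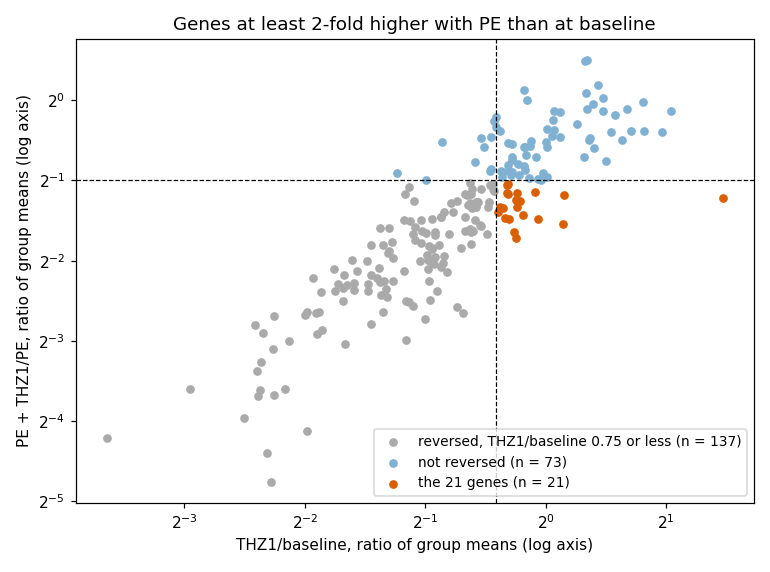
Each point is 1 of the genes with PE/baseline of at least 2, apart from the 2 left out. The horizontal axis is THZ1/baseline and the vertical axis is (PE + THZ1)/PE, both ratios of normalized counts as means of 3 libraries on log axes, with dashed lines at 0.75 and 0.5. The 21 genes (orange) lie to the right of the vertical line and below the horizontal one, 20 of them between 0.762 and 1.11 on the horizontal axis and 1 alone at 2.77, while the 137 comparison genes (grey) reach down to 0.0799.

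Levels of the 21 genes covered a wide range. The mean over 12 libraries ran from 53.7 normalized counts for number 11 to 47336 for number 21. Numbers 17, 18 and 21 had means over 10000 and together held 84.5% to 88.7% of the counts of the 21 genes in every library. The mean was under 300 in 9 of the genes, and 9 lay between 300 and 10000. The fewest reads behind any value of the 21 genes was 29. Summed over the genes, the counts were 86010 ± 5391 at baseline, 78107 ± 418 with THZ1, 191448 ± 7005 with PE and 80418 ± 1153 with PE + THZ1 (SD, n = 3 each). As a share of all normalized counts this was 0.227% ± 0.0258 at baseline, 0.229% ± 0.00432 with THZ1, 0.474% ± 0.0178 with PE and 0.238% ± 0.000801 with PE + THZ1. These sums were set by the 3 abundant genes, whose PE/baseline ratios of 2.09 to 2.24 were among the smallest of the 21.

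With PE alone the genes were 2.09 to 4.65 times their baseline level, with a median of 2.46. ENSRNOG00000027099, number 1, had the largest ratio. Its normalized counts were 31.2, 80.8 and 49.8 at baseline, 215, 242 and 295 with PE, 69.9, 87.5 and 82.2 with PE + THZ1, and 37.6, 48.8 and 48.3 with THZ1. All 3 PE libraries stood above every other library, whereas the baseline libraries varied by a coefficient of variation (CV, the SD as a percentage of the mean) of 46.5%. Its PE/baseline ratio was 6.19 without baseline replicate 2 and 3.84 without baseline replicate 1, and its THZ1/baseline ratio of 0.83 became 1.11 and 0.69.

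Numbers 2 to 4 had similar PE/baseline ratios of 3.61, 3.61 and 3.43 at levels far apart. Number 2 had 861, 1127 and 928 normalized counts at baseline, 3512, 3441 and 3575 with PE, 1283, 1280 and 1326 with PE + THZ1, and 874, 823 and 865 with THZ1. For number 4 the values were 401, 417 and 397 at baseline, 1394, 1285 and 1492 with PE, 481, 511 and 511 with PE + THZ1, and 305, 331 and 326 with THZ1. In both genes the PE + THZ1 libraries lay between the PE and the baseline libraries with no overlap. Number 3 was expressed at a low level, from 24.0 to 158.8 normalized counts in single libraries.

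PE libraries lay above all baseline libraries in 20 of the 21 genes, and in 34.1% of the 12148 genes of mean 50 or more. By limma with an adjusted p under 0.05, 20 of the 21 were higher with PE, against 30.1% of all 14312 genes tested, and 20 were lower with PE + THZ1 than with PE, against 31.3%. The rule used both contrasts, so nothing is read from these counts. The exception in each was number 13.

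The genes nearest to the limits were close to each other on both sides. The PE/baseline ratios next to the limit of 2 were 2.09 and 2.12 inside, and 1.95 and 1.93 among 23 genes that met the other conditions only. For (PE + THZ1)/PE they were 0.484 and 0.480 inside and 0.501 and 0.506 among 63 genes outside. For THZ1/baseline they were 0.762 and 0.771 inside and 0.742 and 0.739 among the 137 outside. Means next to the limit of 50 were 53.7 and 71.3 inside and 46.0 and 46.0 among 46 genes outside.

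**Figure D2:**
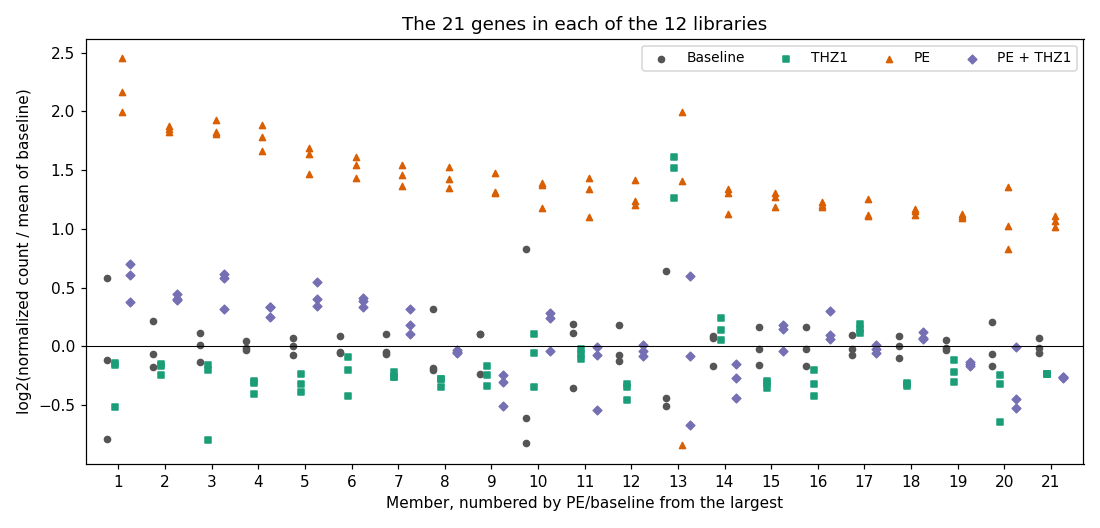
The horizontal axis gives the 21 genes by number and the vertical axis the log2 of the normalized count in each library over the baseline mean of that gene. Each gene has 3 points for each of baseline (circles), THZ1 (squares), PE (triangles) and PE + THZ1 (diamonds). The PE points stand above all baseline points in every gene but number 13, and the PE + THZ1 points lie above the zero line for numbers 1 to 7 and around or under it for most of the others.

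The working description of these genes was that THZ1 does not lower them at rest. The data go against it in part. With THZ1 alone 18 of the 21 had a group mean below baseline (49.6% of the 12148 genes), 16 of them at 0.762 to 0.9 of it, and the median ratio was 0.842, a log2 difference of -0.25, whereas the median over the 12148 genes was 1.00. By limma with an adjusted p under 0.05, 12 were lower and 2 were higher with THZ1 than at baseline, where 26.1% of all genes tested were lower and 25.8% higher. THZ1 libraries lay below all baseline libraries in 13 of the genes (29.2% of the 12148) and above them in 2 (29.9%). The condition above 0.75 admits such decreases, and the genes are described here by that condition and not as unaffected at rest.

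The size of the difference with THZ1 alone, and the calls, depended on the scaling. Normalized counts summed to 37972984 ± 1917353 at baseline, 34184256 ± 470200 with THZ1, 40369779 ± 130940 with PE and 33763048 ± 587361 with PE + THZ1 (SD, n = 3). Setting all libraries to equal totals raised the median log2 THZ1/baseline of the 12148 genes to 0.15 and that of the 21 genes to -0.10. Then 16 of the 21 were below baseline and 5 above. Limma called 3 of the 21 lower and 3 higher, and of all 14312 genes tested 2241 lower and 5922 higher. The median of the 21 genes was below that of all genes on either scale. Applied to equal totals, the rule selected 16 genes, of which 10 were among the 21.

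Number 13, ENSRNOG00000048821, was unlike the other 20. It had 183, 86.3 and 82.4 normalized counts at baseline, 466, 311 and 65.7 with PE, 73.9, 111 and 178 with PE + THZ1, and 280, 358 and 335 with THZ1. PE replicate 3 was lower than all baseline libraries, and the PE libraries overlapped with those of baseline and of PE + THZ1. With THZ1 alone all 3 libraries were above baseline, by a ratio of 2.77, while the next highest ratio in the set was 1.11. Its CV among PE libraries, 71.8%, was the highest of all 12148 genes, and the next highest CV with PE among the 21 genes was 18.9%. Without PE replicate 1 its PE/baseline ratio was 1.61 and its (PE + THZ1)/PE ratio 0.64, and it then left the set. It was also the only one of the 21 in another cluster of the deposited table, which assigned the other 20, and all 137 comparison genes, to a cluster of 3740 genes (23.5% of all). Those clusters were made from the same libraries.

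Numbers 14 and 17 also had a THZ1/baseline ratio above 1, both 1.11. Number 14 had 418, 414 and 350.1 normalized counts at baseline, 974, 862 and 996 with PE, 290.5, 327 and 355 with PE + THZ1, and 410.3, 434 and 465 with THZ1. Number 17, an abundant transcript, had 21005, 23645 and 21725 at baseline, 47869, 47770 and 52769 with PE, 21812, 21326 and 22268 with PE + THZ1, and 23951, 25184 and 24488 with THZ1. In number 17 the THZ1 libraries lay above all baseline libraries and above all PE + THZ1 libraries. In number 14 they overlapped with baseline and stood above PE + THZ1.

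**Figure D3:**
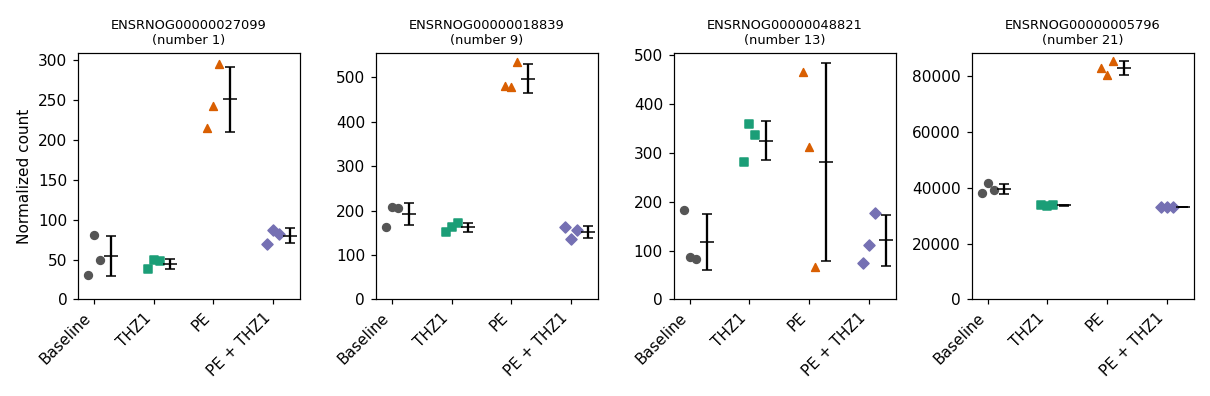
Normalized counts of the 4 genes given by identifier, on a linear axis from 0 for each gene; each point is a library, horizontal ticks are group means and bars are the SD of 3 libraries. Numbers 1, 9 and 21 are high in the PE group alone, whereas in number 13 the PE libraries spread from 65.7 to 466 and the THZ1 libraries lie at 280 to 358.

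When PE and THZ1 were given together, the 21 genes ended on both sides of their baseline level. The ratio (PE + THZ1)/PE ran from 0.305 to 0.484 with a median of 0.399, and (PE + THZ1)/baseline ran from 0.787 to 1.48 with a median of 1.06. The log2 of that median, 0.09, turned to -0.034 without baseline replicate 3. In 12 genes the mean was above baseline (50.1% of the 12148 genes) and in 9 below (49.9%), and 7 lay within 10% of it. By limma 7 genes were higher than baseline, against 26.7% of all genes tested, and 3 were lower, against 27.4%. With equal library totals 16 were above baseline and 5 below, and limma called 10 higher and 0 lower. On that scale 6299 of all 14312 genes tested were called higher and 2181 lower. The median log2 (PE + THZ1)/baseline over the 12148 genes was then 0.17, so the 10 are not read as a trait of the 21. The comparison shares its baseline and its PE + THZ1 libraries with the rule. The rule also caps (PE + THZ1)/baseline at 0.5 times PE/baseline, so a level not far above baseline was in part required by the selection.

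Numbers 1 to 7, with PE/baseline of 2.74 to 4.65, had a (PE + THZ1)/baseline of 1.15 to 1.48. They were the 7 called higher, a share of the 21 near that of all genes tested. The count was 4 without PE + THZ1 replicate 3 and 12 without baseline replicate 2. Of all 14312 genes tested, 3521 and 4147 were called higher in these 2 fits, against 3822 with all libraries. Number 1 was not called without baseline replicate 1 or 3, or PE + THZ1 replicate 2 or 3. Nor was it called by limma on only the groups compared (adjusted p 0.067) or by limma without a trend (adjusted p 0.073). Numbers 8 to 21, with PE/baseline of 2.09 to 2.70, had 0.787 to 1.12, and 5 of these 14 were above 1. Number 6, in the first set, had 169, 187 and 169.9 normalized counts at baseline, 510, 474 and 535 with PE, 222, 233 and 229 with PE + THZ1, and 164, 131 and 152 with THZ1. Both ratios have the same baseline libraries as the denominator, so a low baseline raises both. The cap that the rule puts on (PE + THZ1)/baseline, given above, also rises with PE/baseline. It left numbers 1 to 7 more room above baseline than numbers 8 to 21, so their difference was in part built into the selection. Number 7 had 1367, 1536 and 1385 normalized counts at baseline, 4155, 3672 and 3928 with PE, 1541, 1624 and 1784 with PE + THZ1, and 1230, 1195 and 1197 with THZ1, so that its PE + THZ1 libraries all exceeded its baseline libraries by a small margin. In number 8, the next in order, baseline replicate 2 at 4524 stood apart from the other two at 3164 and 3204, and the PE + THZ1 libraries at 3507, 3488 and 3561 lay among them.

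The strongest reversal was in ENSRNOG00000018839, number 9, at 0.305 of the PE level. It had 163, 207 and 207 normalized counts at baseline, 480, 477 and 534 with PE, 162, 136 and 156 with PE + THZ1, and 153, 162 and 172 with THZ1. All 3 PE + THZ1 libraries were below all 3 baseline libraries, though replicate 1 of each differed by only about a count. The group was at 0.787 of baseline, the lowest of the 21 genes. ENSRNOG00000005796, number 21, was the most abundant gene and had 38129, 41684 and 39280 normalized counts at baseline, 82984, 80311 and 85545 with PE, 32968, 33042 and 33074 with PE + THZ1, and 33700, 33631 and 33688 with THZ1. Its 2 groups with THZ1 had CVs of 0.164% and 0.109% and lay below every baseline library, with a ratio of 0.832 and 0.848. Numbers 9, 14 and 21 were the 3 genes that limma called lower than baseline with PE + THZ1, and none of the 3 was called lower with equal library totals.

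The response to PE in the presence of THZ1 was read from PE + THZ1 against THZ1. The ratio ran from 0.372 to 1.82 with a median of 1.27, was above 1 in 15 of the 21 genes (47.7% of the 12148) and did not reach 2 in any. By limma 11 genes were higher (12.6% of all genes tested) and 3 lower (11.7%). Those higher were numbers 1 to 7, 12, 15, 16 and 18, and those lower were numbers 13, 14 and 17. PE + THZ1 libraries lay above all THZ1 libraries in 12 genes (23.6% of the 12148) and below all of them in 4 (25.7%). This contrast was nearly free of the scaling, with 15 genes above 1 on equal totals too and a change in the all-gene median log2 from -0.01 to 0.008. Its libraries were used by the rule, though not this ratio.

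Number 3 had the largest (PE + THZ1)/THZ1 ratio, 1.82, beside a PE/baseline ratio of 3.61. Its normalized counts were 36.5, 24.0 and 37.6 with THZ1 and 52.2, 62.5 and 64.0 with PE + THZ1. Number 1 followed with 1.78, then number 5 with 1.68 and number 4 with 1.56. Number 5 had 188, 209 and 198 normalized counts at baseline, 637, 550 and 618 with PE, 252, 263 and 289 with PE + THZ1, and 169, 159 and 151 with THZ1. The 4 genes kept a rise with PE at every pair of libraries. That the ratio is smaller than without THZ1 is fixed by the rule.

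Numbers 12, 15, 16 and 18 returned to about baseline with PE + THZ1 yet kept a rise over THZ1 alone, with (PE + THZ1)/baseline of 0.976, 1.07, 1.12 and 1.06 and (PE + THZ1)/THZ1 of 1.27, 1.34, 1.38 and 1.33. Number 18, an abundant transcript, had 12612, 14394 and 13528 normalized counts at baseline, 30004, 29331 and 30362 with PE, 14217, 14102 and 14722 with PE + THZ1, and 10864, 10802 and 10719 with THZ1. Number 12 had 1353, 1675 and 1406 at baseline, 3492, 3411 and 3953 with PE, 1441, 1396 and 1491 with PE + THZ1, and 1160, 1075 and 1182 with THZ1. In both, the PE + THZ1 libraries overlapped with baseline and lay above all THZ1 libraries, and the THZ1 libraries lay below all baseline libraries. Number 15 showed the same order, with 635 to 796 normalized counts at baseline, 1620 to 1761 with PE, 691 to 808 with PE + THZ1 and 558 to 580 with THZ1. So did number 16, with 159 to 199.8 at baseline, 405 to 417 with PE, 187 to 219 with PE + THZ1 and 133 to 155 with THZ1.

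In numbers 11, 19 and 20 the groups with THZ1 differed little from each other, with (PE + THZ1)/THZ1 of 0.920, 1.04 and 1.06. Limma called none of the 3, nor numbers 8, 9, 10 and 21, whose ratios were 1.19, 0.934, 1.19 and 0.981. Number 19 had 445, 473 and 451 normalized counts at baseline, 985, 973 and 999 with PE, 407, 412 and 417 with PE + THZ1, and 422, 370 and 393 with THZ1. Both groups with THZ1 lay below all its baseline libraries. Number 11, the least abundant of the 21, had 46.2, 31.7 and 43.8 at baseline, 103, 87.0 and 109.8 with PE, 40.4, 27.9 and 38.6 with PE + THZ1, and 38.7, 39.8 and 37.6 with THZ1. In number 11 only the PE libraries were apart from the rest.

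**Figure D4:**
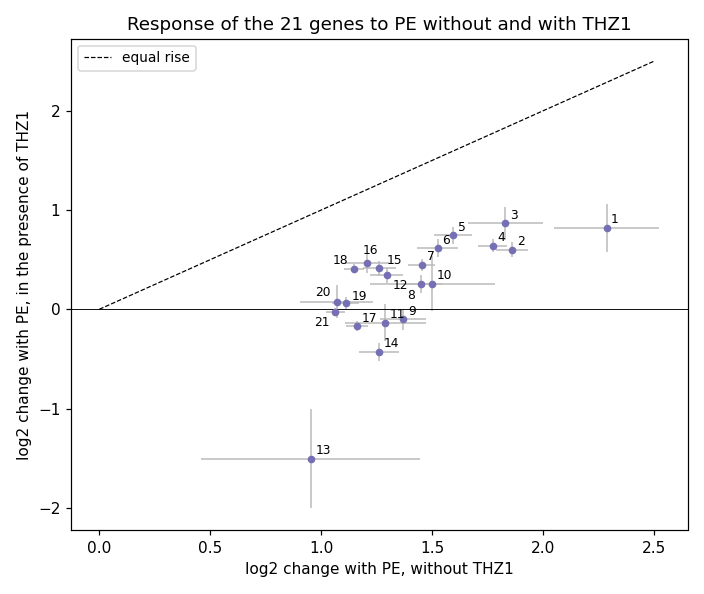
The horizontal axis is the log2 change with PE against baseline and the vertical axis the log2 change of PE + THZ1 against THZ1, both from limma on log2(normalized count + 1), with bars of 1 standard error and genes marked by number. All 21 points lie below the dashed line of equal rise, which the rule fixes in advance for ratios of group means. They run from 0.87 (number 3) to -1.503 (number 13) on the vertical axis.

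In counts, the part of the PE response that remained with THZ1, (PE + THZ1 minus THZ1) over (PE minus baseline), had a median of 14.2% over the 21 genes and of 11.9% over the 137 comparison genes. Its highest value among the 21 was 26.9%, in number 5, and its lowest was -125%, in number 13, with -20.4% in number 14 next. Leaving number 13 out gave a median of 15.8%. On the log2 scale the remaining part was 26.4% in the 21 genes and 42.1% in the 137. The 137 genes, chosen for a lower THZ1/baseline (median 0.467), had medians of 2.49 for PE/baseline, 0.251 for (PE + THZ1)/PE, 0.675 for (PE + THZ1)/baseline and 1.46 for (PE + THZ1)/THZ1. The rule sets the THZ1/baseline values of both sets apart and also caps the remaining part in the 21 genes, so no test between them is given.

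Spread between replicates differed by group. The median CV of the 21 genes was 11.4% at baseline, 6.33% with PE, 7.47% with PE + THZ1 and 5.52% with THZ1, against 7.07%, 4.41%, 4.12% and 3.91% over the 12148 genes. Baseline replicate 2 was the highest of its group for 17 of the 21 genes, with a median of 0.096 on the log2 scale relative to the baseline mean, where replicates 1 and 3 were at -0.075 and -0.044. The matching share over all genes was not counted, so this is not read as a trait of the 21. Over all 14312 genes tested, limma on PE against baseline gave 4304 increases and 3595 decreases. Leaving out baseline replicate 2 gave 4630 and 4057. Leaving out baseline replicate 1 gave 3870 and 3094, and leaving out replicate 3 gave 3930 and 3156. Number 10 had the largest baseline CV, 67.6%, with 54.8, 172.5 and 63.5 normalized counts at baseline, 254, 219.6 and 251 with PE, 118, 114.5 and 94.4 with PE + THZ1, and 76.4, 104 and 93.0 with THZ1. In that gene baseline replicate 2 lay above all PE + THZ1 libraries and the other two lay below them. Whether the place of baseline replicate 2 reflects the cells or the library was not tested.

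The number of genes selected changed most without that library. Repeating the selection without baseline replicate 2 gave 37 genes, of which 20 were among the 21, and leaving out any other single library gave 18 to 27. In all 12 repeats 15 of the 21 genes were kept, and numbers 1, 3, 11, 12, 13 and 20 were lost at least once. Number 20, with a THZ1/baseline ratio of 0.762 and a PE/baseline ratio of 2.12, was kept in 7 of the 12. Its normalized counts were 93.6, 121 and 100.4 at baseline, 213.5, 269 and 186 with PE, 76.8, 105 and 73.1 with PE + THZ1, and 84.3, 88.7 and 67.1 with THZ1.

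**Figure D5:**
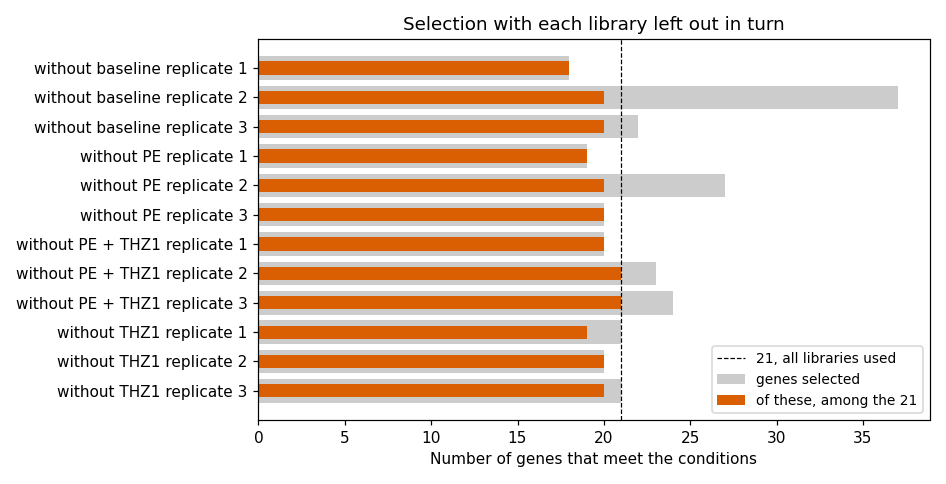
Bars give the number of genes that meet the conditions when each library is left out in turn (grey) and how many of them are among the 21 (orange); the dashed line marks 21. The grey bar reaches 37 without baseline replicate 2 and 18 without baseline replicate 1, and the orange bars stay between 18 and 21.

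Genes were also selected on 2 of the 3 libraries of each group and read in the third, which the selection had not used. Libraries were left out by replicate number, which is not known to pair them. With replicate 1 held out, 15 genes were selected, all among the 21, and all 15 met the 3 ratio conditions in the held-out libraries, with medians of 2.93 for PE/baseline, 0.393 for (PE + THZ1)/PE and 0.8996 for THZ1/baseline. With replicate 3 held out, 16 of 23 did so, with medians of 2.51, 0.418 and 0.871. With replicate 2 held out, 45 genes were selected and only 10 met all 3 conditions, with medians of 2.03, 0.446 and 0.706. In those libraries 24 of the 45 were at least 2-fold higher with PE, 34 were at or under 0.5 of the PE level with THZ1, and 18 were above 0.75 of baseline with THZ1 alone. A gene meeting the ratio conditions in both parts meets them over all 3 libraries, so its place among the 21 was largely fixed. The share of all genes that meet the conditions in the held-out libraries was not counted. Each held-out value is a ratio of single libraries, so no test is given.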

How the data were processed

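RNA was measured in 12 NRVM libraries, 3 per group. Per the methods and labels, the authors aligned single-end 40-base reads with TopHat2 2.1.1 to rn5 and counted them by gene and strand with HTSeq. The deposited signal is the count divided by a DESeq2 size factor. Dividing out the smallest step recovered whole reads for 100% of the values, within 0.01 read, in 15920 genes, and size factors were 0.857 to 1.33. Counting alone gives a CV of 18.6% at 29 reads, the fewest behind any value of the 21 genes.

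Groups follow the labels. Ratios are of group means. The table across all genes was fitted with limma 3.58.1 (trend, all 12 libraries, R 4.3.3) on log2(normalized count + 1) for 14312 genes with a mean of at least 10, with Benjamini-Hochberg adjustment and a threshold of 0.05. The scripts were tested on simulated data. edgeR 4.0.16 (quasi-likelihood) and DESeq2 1.42.0 were run on the recovered reads as alternatives. For PE against baseline edgeR called 3896 genes higher and 3966 lower, where limma called 4304 and 3595. Other alternatives were the scaling, pseudocount, minimum mean, samples fitted, trend, replicate block, and each library left out.

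The genes and lists were chosen with earlier results of these data known. Values were named for genes ranked highest or lowest by the 5 ratios or the mean. Identifiers are given for the genes with the highest PE/baseline, the lowest (PE + THZ1)/PE, the highest THZ1/baseline and the highest mean. The tables of gene, marker and pathway names used here matched 0 identifiers, so gene lists, markers and promoter sequences were not analysed. The cluster column of the deposited table is a label by the authors and was only counted. The numbers shared by replicates are not known to pair libraries. Residuals of same-numbered libraries correlated by 0.0330 on average over 18 pairs, and those of other libraries by -0.0168 over 36 pairs, which cannot settle whether they were paired.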

Additional observations from a re-analysis of the deposited data

Results flagged for a closer look

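For 3 of the 21 genes the libraries stood apart in opposite directions with PE. PE libraries were all above baseline, and PE + THZ1 libraries were all below THZ1. The share of all genes with both was not counted. PE + THZ1 libraries lay below all THZ1 libraries in 25.7% of the 12148 genes, so the 3 are not read as a trait of the set. The ratio of PE + THZ1 to THZ1 was 0.743 for number 14, 0.888 for number 17 and 0.981 for number 21, where PE/baseline was 2.40, 2.24 and 2.09. For number 21 the difference with THZ1 present was under 2%, and limma did not call it. For number 17 the effect of THZ1 was also opposite, again without overlap, at 1.11 times baseline at rest and 0.441 times PE in the presence of PE. These differences between effects were not tested, and the rule fixes the direction with PE alone and that of PE + THZ1 against PE.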

How the results depend on the processing

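The selection gave 32 genes at a minimum mean of 20, 5 with a THZ1/baseline limit of 0.9, and 18 to 37 with 1 library left out, 37 without baseline replicate 2. With equal library totals 6 of the 21 genes were called with THZ1, against 14. Of all 14312 genes tested, 5922 were then called higher with THZ1 and 2241 lower, against 3693 and 3733. The median log2 values on that scale became 0.25 for (PE + THZ1)/baseline and -0.10 for THZ1/baseline. With group medians they were -0.21 for THZ1/baseline and 0.31 for (PE + THZ1)/THZ1. With 1 library left out they ran from -0.034 to 0.14 for (PE + THZ1)/baseline, reversed at -0.034 without baseline replicate 3, from -0.33 to -0.19 for THZ1/baseline and from 0.34 to 0.37 for (PE + THZ1)/THZ1. Calls among the 21 genes with 1 library left out were 9 to 16 for THZ1, 7 to 15 for PE + THZ1 against baseline and 11 to 15 against THZ1. They were 20 to 21 both for PE and for PE + THZ1 against PE. Calls over all 14312 genes moved too, from 3115 to 3966 higher and 3303 to 4141 lower for THZ1. For PE + THZ1 they were 3283 to 4147 and 3460 to 4255 against baseline, and 1329 to 2210 and 1197 to 2226 against THZ1. With PE 3814 to 4630 were higher, and 4089 to 4759 were lower with PE + THZ1 than with PE. The ranges for the 21 are not read as a trait of those genes. Held-out PE/baseline medians were 2.93 and 2.03 where 2.51 was the third. The causes were not tested. With a replicate block, 15, 11, 14, 20 and 20 genes were called in these 5 contrasts, in the order THZ1, PE + THZ1 against baseline, against THZ1, PE, and PE + THZ1 against PE. For the 4 genes with identifiers 246 of the repeated values kept their direction and call, 24 kept the direction and lost the call, and 2 gained a call. The other 4 changed sign and were called on neither side: log2 THZ1 against baseline of ENSRNOG00000027099 went from -0.17 to 0.17 without baseline replicate 2, and log2 PE + THZ1 against baseline of ENSRNOG00000048821 from 0.053 to -0.12 without baseline replicate 2, -0.15 without baseline replicate 3 and -0.27 without PE + THZ1 replicate 3, the full ranges with 1 library left out being -0.50 to 0.17 and -0.27 to 0.42. The promoter alternative was not run because 0 identifiers matched. Depth limits values at low counts, where the lowest means were 53.7 and 71.3 for numbers 11 and 3.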
